A study of Mus musculus with 18 samples.

Results

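Sterol and fatty acid synthesis were read through the open chromatin of their genes. A region of open chromatin was counted for a gene when its midpoint lay in the gene body or within 10 kb of either end, in the mouse build mm9 and the gene models of GENCODE vM1. Of 32 listed genes, 31 were in the annotation (*Hmgcs1* was not found under that name and was left out), 16 in the sterol branch and 15 in the fatty acid branch. Together they held 158 of the 69499 deposited regions, 49 in sterol windows and 109 in fatty acid windows, and no region lay in the windows of 2 member genes. At the edge of the window, the farthest regions counted lay 9942 bp from *Aacs*, 9454 bp from *Me1*, and 9424 bp from *Fasn*, and the nearest regions not counted lay 10077 bp from *Pmvk*, 10078 bp from *Fasn*, and 10134 bp from *Aacs*.

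The libraries were made by ATAC-Seq, which reads where a transposase can enter the chromatin, from 50000 liver macrophages (LMs, named KCs for Kupffer cells in the sample titles) of male C57BL/6J mice after 4 weeks of a high-fat, high-sucrose diet (HFHSD). There were 18 libraries, 3 for each of 3 genotypes at zeitgeber time (ZT) 10 and ZT22. Controls had received an adeno-associated virus with GFP, *Reverb*-hDKO mice lacked both REV-ERB clock repressors in hepatocytes, and *Reverb/Scap*-hTKO mice also lacked SCAP, the escort protein that SREBP needs for activation. Knockout mice carried floxed alleles and received CRE as adults, and GFP and CRE were both driven by the hepatocyte-specific TBG promoter, so that the LMs were not themselves the target of the deletion. The deposited list joins the regions of all libraries and holds positions only, with no reads, heights, or sample names, so genotypes, times, and replicates could not be compared and no test between them was possible.

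Cells make cholesterol from acetyl-CoA through mevalonate, isoprenoid units, squalene, and lanosterol, and they make fatty acids from citrate-derived acetyl-CoA and malonyl-CoA, followed by elongation and desaturation. Both pathways are classical targets of SREBP transcription factors, which bind sterol regulatory elements at gene starts together with NF-Y, a factor that binds CCAAT boxes, and SP1, a factor of GC boxes. In the liver, hepatocytes are the main site of both pathways, and macrophages also use SREBP to adjust their sterol and fatty acid supply.

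The open regions at the starts of 7 member genes are printed as examples, while the sequence results below count all member regions. The starts of 6 sterol genes and of *Elovl5* are shown because each held 2 or more CCAAT boxes, and they were chosen after their sequences had been searched. Sequences were read from the mm9 genome on the strand of the gene, 5′ to 3′, and capitals mark CCAAT and GGGCGG on either strand (on the other strand CCAAT reads ATTGG and GGGCGG reads CCGCCC). Each is the region as deposited. The regions are chr5:114894114-114894327 (*Mvk*, plus strand), chr13:8885071-8885239 (*Idi1*, plus strand), chr3:88905908-88906109 (*Fdps*, minus strand), chr14:63796809-63796987 (*Fdft1*, minus strand), chr15:59146455-59146646 (*Sqle*, plus strand), chr1:171899332-171899570 (*Hsd17b7*, minus strand), and chr9:77765048-77765235 (*Elovl5*, plus strand).
Mvk: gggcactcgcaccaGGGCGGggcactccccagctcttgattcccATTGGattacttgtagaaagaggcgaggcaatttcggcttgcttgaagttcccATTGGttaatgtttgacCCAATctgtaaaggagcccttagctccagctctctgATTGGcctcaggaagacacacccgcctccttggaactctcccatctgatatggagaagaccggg
Idi1: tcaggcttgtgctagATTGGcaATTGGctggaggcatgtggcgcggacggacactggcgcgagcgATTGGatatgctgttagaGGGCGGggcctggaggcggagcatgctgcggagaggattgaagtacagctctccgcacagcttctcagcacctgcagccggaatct
Fdps: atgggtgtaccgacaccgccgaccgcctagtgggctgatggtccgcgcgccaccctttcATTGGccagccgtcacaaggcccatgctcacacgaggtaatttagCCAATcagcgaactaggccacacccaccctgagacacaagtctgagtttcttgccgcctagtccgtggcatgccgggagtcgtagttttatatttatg
Fdft1: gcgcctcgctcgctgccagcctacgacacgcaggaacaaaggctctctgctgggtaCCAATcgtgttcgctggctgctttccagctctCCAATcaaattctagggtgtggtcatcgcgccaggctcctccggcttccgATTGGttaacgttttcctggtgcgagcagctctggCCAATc
Sqle: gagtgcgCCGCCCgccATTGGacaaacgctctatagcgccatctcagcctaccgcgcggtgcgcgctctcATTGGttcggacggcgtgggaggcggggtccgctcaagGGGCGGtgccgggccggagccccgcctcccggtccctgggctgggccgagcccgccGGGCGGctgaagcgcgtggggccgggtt
Hsd17b7: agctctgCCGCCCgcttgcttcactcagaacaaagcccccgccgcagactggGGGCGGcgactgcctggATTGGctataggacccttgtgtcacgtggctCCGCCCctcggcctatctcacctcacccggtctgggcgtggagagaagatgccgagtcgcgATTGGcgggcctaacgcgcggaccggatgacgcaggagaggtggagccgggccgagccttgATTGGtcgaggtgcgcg
Elovl5: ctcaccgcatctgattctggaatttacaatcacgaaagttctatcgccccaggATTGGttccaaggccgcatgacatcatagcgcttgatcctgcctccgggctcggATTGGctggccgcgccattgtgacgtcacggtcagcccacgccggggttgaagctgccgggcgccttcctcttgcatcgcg

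Each of the 31 genes had an open start, defined as a region whose midpoint lay within 1000 bp of an annotated transcription start of the gene. This was 16 of 16 sterol genes (95% Wilson confidence interval 80.6% to 100%) and 15 of 15 fatty acid genes (79.6% to 100%), against 56.7% of the 22367 protein-coding genes. All 17 other genes of the same pathways that were counted, 4 of late sterol synthesis such as *Nsdhl* and *Ebp* and 13 of fatty acid elongation, desaturation, activation, and mitochondrial synthesis such as *Acsl1* and *Fads3*, had one as well. These intervals cover the number of genes only, and depth is unknown. With the first base of the gene as its only start, *Acacb* was the single member that was not open.

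The source of these regions could not be read from the list alone. Of 10 macrophage markers, 5 had an open start, among them *Clec4f* and *Timd4* of resident Kupffer cells and *Cd68*, while *Csf1r*, *Vsig4*, *Marco*, *Lyz2*, and *Fcgr1* did not, although regions lay elsewhere in the windows of these genes. The count was 9 of 10 for hepatocyte markers, with *Alb*, *Apoa1*, and *Ttr* open and *Serpina1a* not. It was 8 of 10 for endothelial markers and 3 of 10 for neuron and muscle markers. Over all protein-coding genes the share was 56.7%, near the 5 of 10 of the macrophage markers. The part of hepatocyte or endothelial chromatin in the open starts of the synthesis genes was not tested. Fewer cells of a type and less open chromatin per cell cannot be told apart in such a list.

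The branches differed in what surrounded the start. Sterol genes had a median of 3 regions per gene (range 1 to 8) and fatty acid genes a median of 7 (4 to 14). The median over all protein-coding genes was 2, and it was 4 over the 12693 coding genes with an open start. Counted away from the starts of the gene itself, the median was 1 region per sterol gene (0 to 6) and 5 per fatty acid gene (3 to 12), with 2 per coding gene with an open start. In 7 of 16 sterol genes (43.8%, 23.1% to 66.8%) and 0 of 15 fatty acid genes (0%, 0% to 20.4%) no region lay away from the start, against 35.7% of all coding genes and 17.9% of those with an open start.

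**Figure D1:**
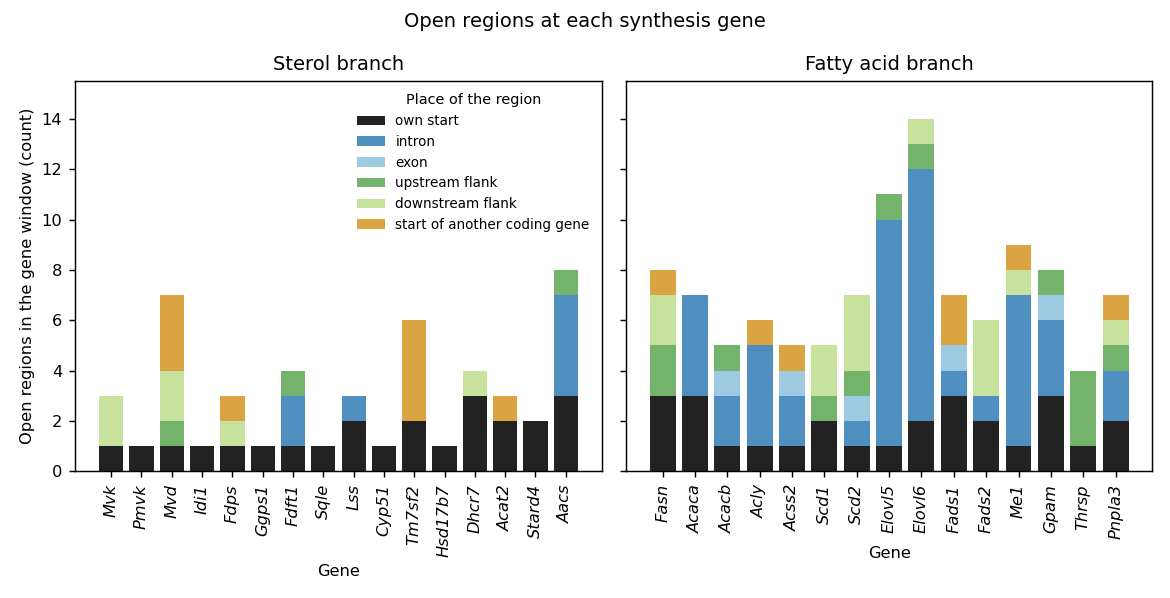
Number of open regions in the window of each gene (y axis, count), with 1 bar per gene, sterol genes on the left and fatty acid genes on the right, and colors for the place of each region. 6 sterol genes have a single region, and the fatty acid genes reach from 4 for *Thrsp* to 14 for *Elovl6*.

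The genes with a single region were *Pmvk*, *Idi1*, *Ggps1*, *Sqle*, *Cyp51*, and *Hsd17b7*. *Pmvk* makes mevalonate diphosphate, and its region of 319 bp was the widest at a sterol start (chr3:89262998-89263316). *Idi1* isomerizes isopentenyl diphosphate, the isoprenoid unit. *Ggps1* makes geranylgeranyl diphosphate for protein prenylation, and its region (chr13:14155753-14155997) has its midpoint at -207 bp from its start. *Sqle* is squalene epoxidase, *Cyp51* removes a methyl group from lanosterol (chr5:4104704-4104918), and *Hsd17b7* reduces a sterol ketone. *Stard4*, a carrier that moves cholesterol between membranes, had 2 regions, both at its start. These 7 genes span the isoprenoid, squalene, and late sterol steps and cholesterol transport.

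Among the other genes of the early mevalonate steps, *Acat2*, which makes acetoacetyl-CoA, had 3 regions, 2 at its own start and 1 at the start of its neighbor *Acat3*. *Aacs*, which activates acetoacetate for sterol and fatty acid synthesis, had 8 regions, the highest count in the sterol branch, with 3 at its starts and 4 in introns. *Mvk*, mevalonate kinase, had 3 regions, 1 at its start and 2 beyond its end. *Mvd*, which makes isopentenyl diphosphate, had 7 regions, of which 1 was at its own start (chr8:124967356-124967529), 3 were at the start of *Cyba*, and 5 lay nearer to the start of *Cyba* than to its own. *Cyba* encodes a subunit of the phagocyte NADPH oxidase, so the count for *Mvd* takes in the neighborhood of a gene of another pathway.

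*Fdps*, which makes farnesyl diphosphate, had 3 regions, and 2 of these lay nearer to the start of *Rusc1*. The widest sterol region, 321 bp, was one of them (chr3:88894800-88895120, 1007 bp from the start of *Rusc1*). *Fdft1*, squalene synthase, had 4 regions, 2 of them in introns. *Lss*, which closes lanosterol, had 3 regions, with 2 at its starts and 1 in an intron. *Tm7sf2*, a sterol reductase, had 6 regions around a gene of 5553 bp, and 4 of them were at the starts of *Fau*, *Znhit2-ps*, and 1110014N23Rik. *Dhcr7*, which makes the last double-bond reduction to cholesterol, had 4 regions, 3 at its starts, of which 2 (chr7:151015439-151015670 and chr7:151016014-151016171) lay 6504 and 7042 bp inside the gene at internal starts.

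In the fatty acid branch, the genes that supply acetyl-CoA and NADPH had 5 to 9 regions. *Acly*, ATP citrate lyase, had 6, of which 4 were in introns (start region chr11:100389281-100389448). *Acss2*, which activates acetate, had 5 (start region chr2:155343619-155343785). *Me1*, malic enzyme, had 9, of which 6 were in introns and 6 lay nearer to the start of another coding gene.

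The acetyl-CoA carboxylases, which make malonyl-CoA, differed from each other in where their start was open. *Acaca* had 7 regions in its 271980 bp, with 1 at its first base (chr11:83943054-83943242) and 2 at starts 50000 and 50690 bp inside the gene. *Acacb* had 5 regions, and the one nearest to its first base had its midpoint at -7083 bp, in the upstream flank. Its open start was an internal one, 29314 bp into the gene (chr5:114625754-114625962, 209 bp wide). *Gpam*, which starts glycerolipid synthesis, had 8 regions and was open both at its first base (chr19:55201730-55201918) and at an internal start with regions 27720 and 28501 bp into the gene.

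*Fasn*, fatty acid synthase, had 8 regions around a gene of 18239 bp. Of these, 3 were within 1000 bp of annotated starts, 2 in the upstream flank, 2 in the downstream flank, and 1 at the start of *Dus1l*. The widest region of the fatty acid branch, 346 bp, had its midpoint at -6798 bp from the first base of *Fasn* (chr11:120692118-120692463). *Thrsp*, known as Spot 14, had 4 regions, 1 at its start (chr7:104566107-104566319) and 3 upstream. *Pnpla3*, a lipid droplet lipase, had 7, of which 3 lay nearer to another coding gene.

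The elongases *Elovl6* and *Elovl5* had the highest counts of the 31 genes. *Elovl6*, which extends palmitate to stearate, had 14 regions, of which 10 were intronic. Fewer regions were found in 97.9% of coding genes, but *Elovl6* is 106110 bp long. Per 10 kb of window, 77% of coding genes had a lower value. *Elovl5*, which extends polyunsaturated fatty acids, had 11, of which 9 were intronic. The desaturases *Scd1*, *Scd2*, *Fads1*, and *Fads2* had 5, 7, 7, and 6 regions. *Scd1* and *Scd2* introduce the first double bond into saturated fatty acids, and the region nearest to the start lay 134 bp downstream in *Scd1* (chr19:44481903-44482227) and 355 bp downstream in *Scd2* (chr19:44368404-44368638). *Fads1* and *Fads2* act on polyunsaturated fatty acids, and 4 of the 6 regions of *Fads2* lay nearer to another gene.

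**Figure D2:**
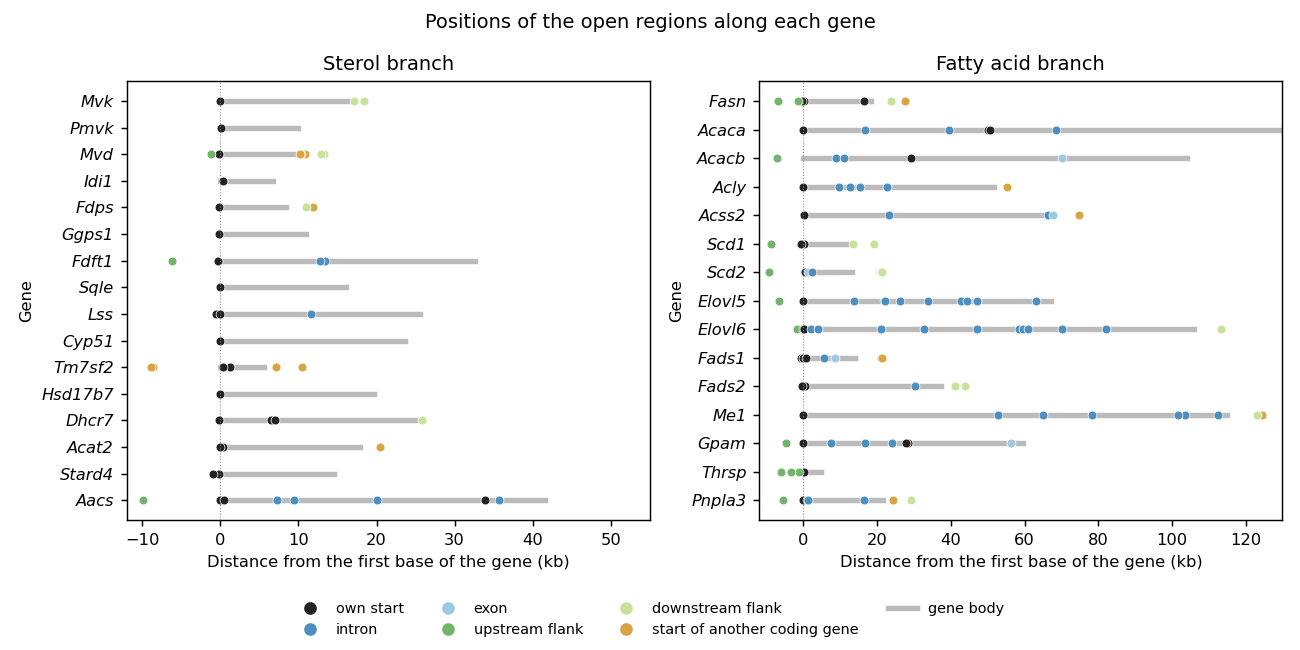
Position of each open region (dot, colored by place) along the genes, as the distance in kb of its midpoint from the first base of the gene in the direction of transcription, with the gene body in gray and panels for the sterol and the fatty acid branch on different scales. Most sterol rows have dots only near 0 or beyond the gene, while *Elovl5* and *Elovl6* have 9 and 10 intronic dots, and 1 region of *Acaca* 265616 bp into the gene is beyond the axis.

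Fatty acid genes were longer, with a median of 51648 bp (4793 to 271980) against 16220 bp (5553 to 41599) for sterol genes, so counts were also set against length. Per 10 kb of window, the median was 0.709 regions for sterol genes (0.229 to 2.35) and 1.11 for fatty acid genes (0.24 to 2.11), with 0.47 over coding genes and 0.816 over coding genes with an open start. More regions per 10 kb than this last median were found in 6 of 16 sterol genes and 11 of 15 fatty acid genes. The highest values per 10 kb were 2.35 for both *Mvd* and *Tm7sf2* in the sterol branch, and 2.11 for *Scd2* and 2.09 for *Fasn* in the fatty acid branch. The lowest were 0.229 for *Cyp51* and 0.24 for *Acaca*, the longest gene.

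Within classes of gene length, the counts of the branches overlapped in some and not in others. Below 10 kb, the 5 sterol genes had 1 to 7 regions and the only fatty acid gene, *Thrsp*, had 4. From 10 to 20 kb the branches did not overlap. The 6 sterol genes of this length had 1 to 3 regions, and the 4 fatty acid genes (*Fasn*, *Scd1*, *Scd2*, and *Fads1*) had 5 to 8. The 2527 coding genes of this length with an open start had a median of 4 and quartiles of 2 and 5. At 20 to 50 kb the 5 sterol genes had 1 to 8 regions and the 2 fatty acid genes 6 and 7, and the ranges overlapped. No sterol gene was longer than 50 kb, so the longer fatty acid genes had no sterol gene of their length beside them. The 4 fatty acid genes of 50 to 100 kb had a median of 7 regions, against 5 for coding genes with an open start. The 4 above 100 kb had a median of 8, against 7. Which branch *Aacs*, *Stard4*, *Thrsp*, and *Pnpla3* belong to was decided here, and without *Aacs* and *Stard4* the sterol median stayed at 0.709 per 10 kb, and without *Thrsp* and *Pnpla3* the fatty acid median was 1.05.

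**Figure D3:**
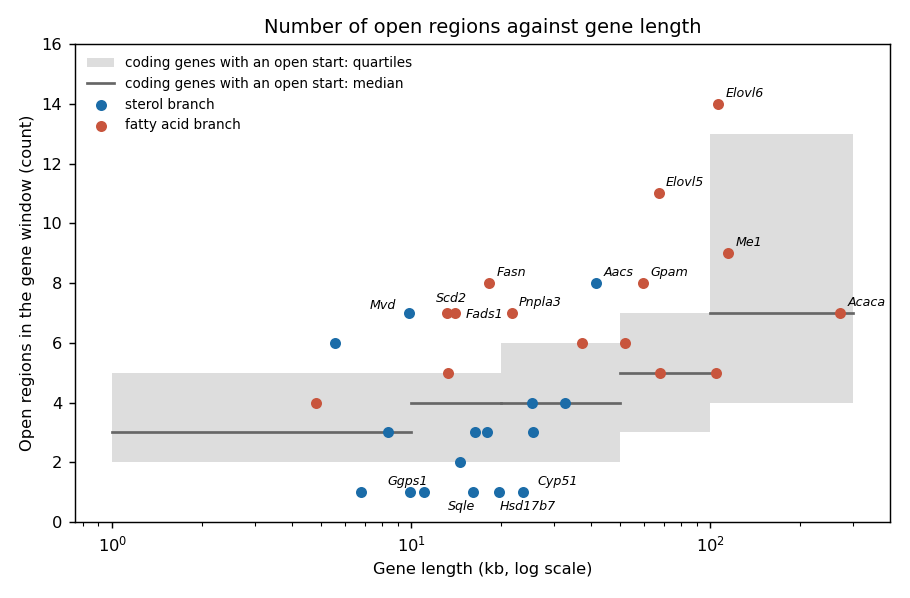
Number of open regions (y axis) against gene length in kb (x axis, log scale) for the 31 member genes, with the median (line) and quartiles (shading) of coding genes with an open start in 5 length classes. Among genes of 10 to 20 kb the sterol genes have 1 to 3 regions and the fatty acid genes 5 to 8, and *Elovl6* at 14 and *Elovl5* at 11 lie above the quartiles of their class.

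The place of the regions followed the same division. Regions at the gene's own starts made up 24 of 49 in the sterol branch (49.0%, 35.6% to 62.5%) and 27 of 109 in the fatty acid branch (24.8%, 17.6% to 33.6%). Introns held 7 sterol regions (14.3%, 7.10% to 26.7%) and 45 fatty acid regions (41.3%, 32.5% to 50.7%). Fatty acid genes are longer, and these shares were not set against gene length, the number of annotated starts, or all coding genes. Internal starts count as own starts, and genes had from 1 annotated start, as in *Mvd* and *Elovl6*, to 12 in *Tm7sf2*. The long genes *Elovl6*, *Elovl5*, and *Me1* had 10, 9, and 6 intronic regions. The fatty acid genes of 10 to 20 kb had few, with 0 in *Fasn* and *Scd1* and 1 each in *Scd2* and *Fads1*. The start of another coding gene took 9 sterol regions (18.4%) and 7 fatty acid regions (6.42%). About the same share of regions, 24.5% in the sterol and 25.7% in the fatty acid branch, lay nearer to the start of another coding gene than to a start of the member. Regions of 1 gene share a locus, so the intervals treat as independent what may not be.

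The width of the regions was read at starts and away from them. At starts, sterol regions were 198 ± 39.5 bp wide (SD, n = 24 regions) and fatty acid regions 204 ± 50.9 bp (SD, n = 27 regions), against 200 ± 53.3 bp over all 19627 regions at coding gene starts. Away from starts the means were 183 ± 43.2 bp (n = 25) and 187 ± 46.5 bp (n = 82), against 181 ± 45.3 bp over all 49735 regions away from every coding gene start. No member region was narrower than 151 bp, and the medians away from starts were 160 and 158 bp. The SD does not show this lower edge.

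The base composition of the start regions overlapped widely between the branches. In windows of 200 bp around the midpoint, the median GC content was 60.8% for sterol and 62.5% for fatty acid start regions (61.5% over all starts). The ratio of observed to expected CpG, which is high in CpG islands, had a median of 0.736 in sterol start regions (0.16 to 1.06) and 0.582 in fatty acid start regions (0.134 to 1.12), against 0.71 over all starts. For the region nearest to the start, *Acaca* had 1.12 and *Sqle* 1.06, and *Thrsp* at 0.134 was at the bottom.

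The place of the start regions around the transcription start was read next. The midpoint of the region nearest to a start was upstream in 14 of 16 sterol genes (87.5%, 64.0% to 96.5%) and in 7 of 15 fatty acid genes (46.7%, 24.8% to 69.9%), against 69.5% of coding genes with an open start. The intervals of the branches overlapped, and both took in the share of all such genes. The median position was -74.2 bp for sterol genes and 0 bp for fatty acid genes. The exceptions in the sterol branch were *Idi1*, at 303 bp downstream, and an internal start of *Dhcr7*, at 23.5 bp downstream. A start shared with another coding gene within 1000 bp was about as common in both branches as elsewhere, with *Mvk* beside *Mmab*, *Ggps1* beside *Arid4b*, and *Dhcr7* beside *Nadsyn1* (18.8% of sterol genes), and *Acaca* beside *Tada2a*, *Acss2* beside *Ggt7*, and *Me1* beside A330041J22Rik (20% of fatty acid genes), against 19.0% of coding genes with an open start.

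The SREBP pattern was rare in these windows. TCACNCCAC was searched on both strands in the 200 bp around each midpoint and was found in 0 of 24 sterol start regions (0%, 0% to 13.8%) and 1 of 27 fatty acid start regions (3.70%, 0.657% to 18.3%), against 0.825% of all regions at coding gene starts. Away from its own start, *Elovl6* had a match in an intron, 4055 bp into the gene (TCACCCCAC, chr3:129239355-129239363, minus strand). *Fads1* had one away from its own start, at the start of its neighbor 1810006K21Rik (TCACACCAC, chr19:10278544-10278552, plus strand). These were 2 of 82 fatty acid regions away from own starts (2.44%, 0.671% to 8.46%), with 0 of 25 sterol regions (0% to 13.3%). The share of all regions away from every coding gene start was 1.02%, within both intervals. That share leaves out starts of other genes, where the *Fads1* match lies. With 1 mismatch allowed, the share at starts was 25% for sterol and 22.2% for fatty acid genes, against 18% of all starts. A missing match says only that these letters were not in the window.

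CCAAT boxes were more frequent. CCAAT was found on either strand in 16 of 24 sterol start regions (66.7%, 46.7% to 82.0%) and in 14 of 27 fatty acid start regions (51.9%, 34.0% to 69.3%), against 27.5% of all start regions. Away from the gene's own starts the shares were 20% and 23.2%, close to the 22.9% of all regions away from every coding gene start. The 2 sets are not alike, since the member regions include 9 sterol and 7 fatty acid regions at the start of another coding gene. With 1 region per gene, the one nearest to a start, 12 of 16 sterol genes (75%, 50.5% to 89.8%) and 9 of 15 fatty acid genes (60%, 35.7% to 80.2%) held CCAAT, against 31.9% of coding genes with an open start. In that region, 9 of 16 sterol genes (56.2%) and 3 of 15 fatty acid genes (20%) had 2 or more boxes, against 10.9%. CCAAT was chosen for the count of 2 or more after the first counts were seen.

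**Figure D4:**
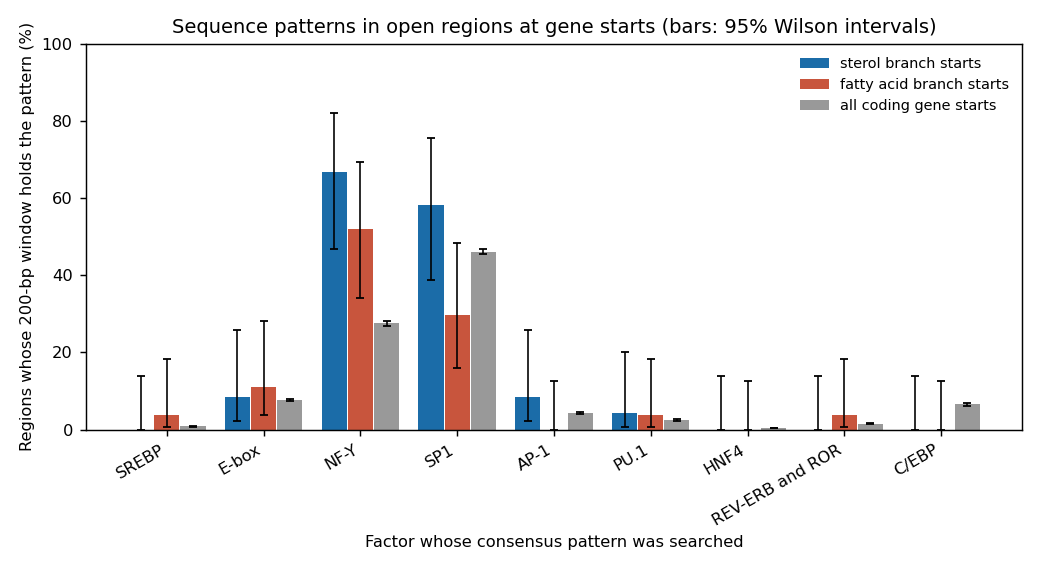
Share of open regions at starts (y axis, percent) whose 200-bp window held the consensus pattern of each of 9 factors (x axis), for 24 sterol start regions, 27 fatty acid start regions, and 19627 start regions of all coding genes, with 95% Wilson intervals as error bars. NF-Y (CCAAT) stands at 66.7% and 51.9% against 27.5%, and the intervals of the branches overlap for every factor.

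Of the 9 sterol genes with 2 or more boxes, 6 are shown above. *Mvk* and *Fdft1* had 4 boxes each, from -118 to -12 bp of the start in *Mvk* and with the nearest at -182 bp in *Fdft1*, as their sequences above show. *Idi1* had 3, all read on the strand opposite to the gene and all downstream of its annotated start, by 236, 243, and 286 bp. *Fdps* had 2, at -167 and -122 bp, and *Sqle* had 2, at -159 and -105 bp. *Hsd17b7* had 2 in its window, at -127 and -35 bp, and a further one outside the window but inside the region. *Mvd*, *Ggps1*, and *Stard4* also had 2 or more. *Pmvk*, *Tm7sf2*, *Acat2*, and *Aacs* had none in the region nearest to a start, although *Tm7sf2*, *Acat2*, and *Aacs* had at least 1 in another region at their starts.

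In the fatty acid branch, *Scd2*, *Elovl5*, and *Fads2* had 2 or more, with those of *Elovl5* at -68 and -14 bp. *Acaca*, *Acacb*, *Scd1*, *Elovl6*, *Me1*, and *Pnpla3* had none in the region nearest to a start, although *Acaca*, *Scd1*, and *Elovl6* had at least 1 in another region at their starts. Of the 27 boxes in sterol genes, 16 (59.3%) lay in the 200 bp upstream of the start, and of the 12 in fatty acid genes, 4 (33.3%) did, against 75.4% of the boxes over coding genes with an open start.

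**Figure D5:**
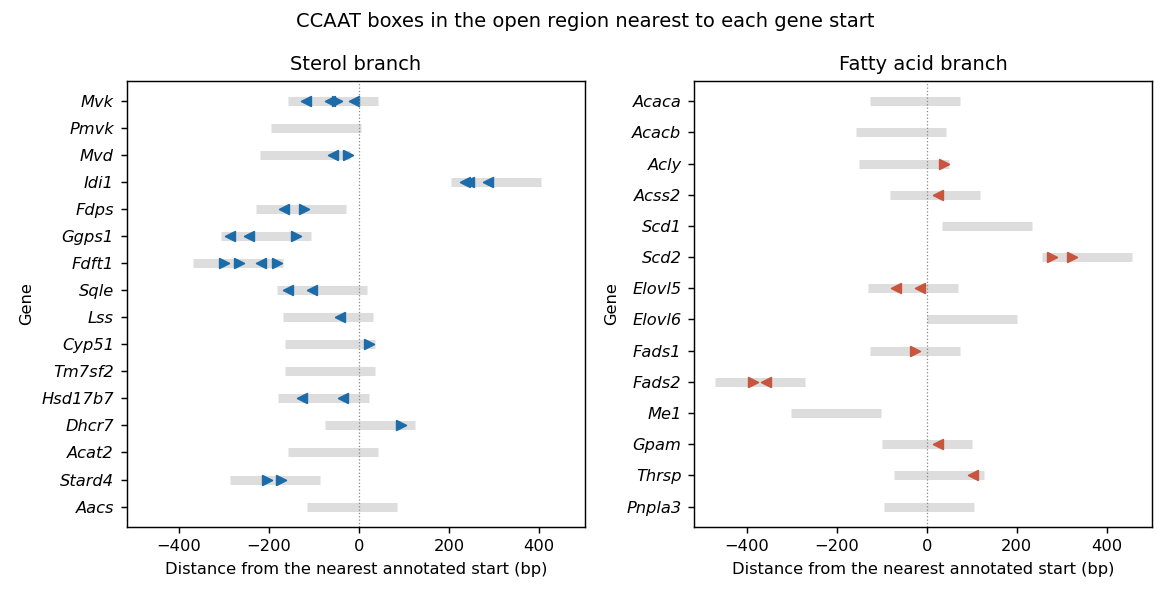
CCAAT boxes (triangles) in the 200-bp window (gray bar) of the open region nearest to a start of each gene, by distance in bp from that start in the direction of transcription, without *Fasn*. A triangle points right where CCAAT reads on the strand of the gene and left where it reads on the other strand, and 9 sterol and 3 fatty acid genes have 2 or more.

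The genes of the same pathways outside the member list were read in the same way. Among 4 other sterol genes (*Sc4mol*, *Nsdhl*, *Ebp*, and *Sc5d*), 4 had CCAAT in the region nearest to a start and 2 had 2 or more boxes. Among the 13 other fatty acid genes, 6 had CCAAT (46.2%, 23.2% to 70.9%, an interval that takes in the 31.9% of coding genes with an open start) and 1 had 2 or more (7.69%, against 10.9%). Counts of regions were a median of 2.5 (1 to 4) for the other sterol genes and 4 (2 to 12) for the other fatty acid genes, with *Acsl1*, a long-chain acyl-CoA synthetase, at 12 and *Nsdhl*, a sterol dehydrogenase, at 1. Away from their own starts the medians were 1.5 (0 to 2) and 2 (1 to 9), closer to each other than the medians of 1 and 5 in the members.

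GC boxes were counted in the same way. GGGCGG was found in 14 of 24 sterol start regions (58.3%, 38.8% to 75.5%) and 8 of 27 fatty acid start regions (29.6%, 15.9% to 48.5%), against 46.1% of all start regions, and the intervals overlapped. With 1 region per gene, the one nearest to a start, the counts were 10 of 16 (62.5%, 38.6% to 81.5%) and 7 of 15 (46.7%, 24.8% to 69.9%), against 55.3% of coding genes with an open start. In that region, 2 or more GC boxes were in 25% of sterol and 26.7% of fatty acid genes, close to the 27.5% of coding genes with an open start. *Sqle* and *Hsd17b7* show 3 GC boxes each in the sequences above, and *Fdps*, *Fdft1*, and *Elovl5* show none. Away from own starts, GGGCGG was in 24% of 25 sterol and 14.6% of 82 fatty acid regions, against 7.58% of all regions away from every coding gene start. The E-box CACGTG, bound by clock and SREBP factors, was at 2 sterol starts (*Hsd17b7* and *Stard4*, 8.33%). It was at 3 fatty acid start regions (*Acaca* with 2 and *Fads1* with 1, 11.1%), against 7.66% of all start regions. Away from own starts it was in 12 of 107 member regions (11.2%, 6.53% to 18.6%), against 5.81%. These member regions include some at the start of another coding gene, and the 7.58% and 5.81% include none. The REV-ERB and ROR pattern TAGGTCA was at 1 of the 51 member start regions, in *Fads1* (1.96%, 0.347% to 10.3%), against 1.5% of all start regions. It was also in 5 regions away from the gene's own starts, all of fatty acid genes (*Fasn*, *Acly*, *Scd1*, *Elovl5*, and *Gpam*). This was 6.10% of 82 (2.63% to 13.5%), against 3.11% of all regions away from every coding gene start. With only 25 sterol regions away from starts and none with the pattern (0% to 13.3%), a difference between the branches was not detectable.

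Patterns of macrophage and hepatocyte factors were at few of the member starts. The PU.1 pattern GAGGAAGT was at 2 of 51 (*Acat2* and *Elovl6*, 3.92%, against 2.51% of all starts). The AP-1 pattern TGANTCA was also at 2 (both in *Dhcr7*, 3.92%, against 4.21%). Away from starts, PU.1 was in 3 of 107 regions (2.8%, 0.958% to 7.92%, against 4.79%). AP-1 was in 7 of 107 (6.54%, 3.2% to 12.9%, against 10.9%). The HNF4 pattern CAAAGTCCA was at 0 of 51 (0% to 7%, against 0.418%) and in 3 of 107 regions away from starts (in *Acaca*, *Acly*, and *Elovl6*, 2.80%, 0.958% to 7.92%, against 1.21%). The C/EBP pattern TTGCNNAA was at 0 of 51 (0% to 7%, against 6.55% of all starts) and in 8 of 107 regions away from starts (7.48%, against 12.9%). In the counts away from starts, member regions include those at the start of another coding gene, and the shares of all regions leave such regions out. None of the 9 patterns contains another, but matches of different patterns can overlap.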

How the data were processed

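The libraries were made from 50000 LMs each, and per the labels there were 3 for each genotype and time. With the ATAC-Seq pipeline of the Kundaje laboratory, the authors trimmed the reads, aligned them to mm9 with Bowtie, merged the biological replicates, and called open regions on the merged reads. The pipeline's version, the peak caller with its threshold, and how the lists were joined are not given in the sources used here. HOMER is also named in the submitters' processing notes. The deposited file holds chromosome, start, and end of 69499 regions and no counts, scores, or samples, so depth per library is unknown. A joined list does not show in which group a region was open.

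Members and lists were chosen with earlier results of these data known. Regions were assigned by midpoint to gene windows (gene body and 10 kb at either end) of GENCODE vM1 on NCBIM37, which is mm9, and starts were read within 1000 bp. A region counts for each gene whose window holds it. Patterns were searched on both strands in 200 bp around midpoints. All 31 annotated members are named. The regions described are the one nearest to a start, the widest of each branch, those of the genes with most regions or most per 10 kb, and those with TCACNCCAC, except that 1 of these regions, its sequence, and 1 gene of the other pathway genes are not reported here, and others were chosen after their values were seen. Shares have 95% Wilson intervals, which cover counting error only, and medians have ranges. No test was run, since no value per sample was at hand. Counting was checked on simulated regions with known answers. Tools were Python 3.11.15, NumPy 2.4.6, SciPy 1.17.1, pysam 0.24.0, and matplotlib 3.10.9.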

Additional observations from a re-analysis of the deposited data

How the results depend on the processing

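Of 56 values under another setting, 41 stayed close to the value reported and 15 moved. Counts, medians, and widths that stayed were within 1.5 times the value reported, and shares that stayed were within its interval. Some medians that moved were still within the range over genes. Without flanks, sterol windows held 16 regions and fatty acid windows 67, and the sterol median fell to 0.196 per 10 kb. This setting also drops start regions with a midpoint just upstream of the gene, as in *Mvk*, *Mvd*, *Fdps*, *Sqle*, and *Cyp51*. With only regions of at least 200 bp, 18 and 38 regions remained, and the medians per 10 kb were 0.241 and 0.349. Open starts were left at 10 sterol and 9 fatty acid genes. The 56.7% of all coding genes is for regions of any width and cannot be set beside these counts. The share of fatty acid regions at their own starts was 17.4% within 500 bp and 33.9% within 2500 bp. With 1 mismatch, the SREBP pattern was at 25% and 22.2% of start regions. When only regions nearer to the member than to another coding gene were counted, a setting added after seeing the data, the medians away from starts were 0 and 3. In each of these settings the fatty acid branch kept more regions in all, and more per gene or per 10 kb where that was computed. CCAAT, in settings also added after seeing the data, was at 70.8% and 66.7% of start regions in windows of 400 bp (39.1% of all starts) and at 66.7% and 48.1% in the regions as deposited (27.2%). Leaving out a replicate was not possible, since the list gives no library. No paired analysis was possible because no library has a value of its own in the deposited file. Unknown depth and 31 genes limit every statement.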
